A study of Mus musculus with 18 samples.

Results

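Cytotoxic lymphocytes kill by releasing granules and by secreting cytokines, and 10 genes of that programme were followed in RNA of cells sorted from MC38 tumours, a mouse colon carcinoma line grown under the skin. They are the granzyme genes Gzma, Gzmb and Gzmk, the perforin gene Prf1, the granule genes Nkg7, Ctsw and Srgn, the cytokine genes Ifng and Tnf, and the death ligand gene Fasl. The genes were chosen by name, by mapping the Ensembl identifiers of the deposited tables to symbols, and all 10 were found among 46983 genes. The tumour-bearing animals were C57BL/6 females, 6 weeks old when the tumour cells were injected. One group received an antibody against the inhibitory receptor PD-1 at 200 µg per mouse, 2 times per week. The other received in addition D18, a code name that the labels do not resolve, at 25 µg per mouse, 1 time per week. Dosing lasted 2 weeks, from the time when tumours had reached 100 mm3 on average. Dendritic cells, CD8+ T cells and CD4+ T cells labelled as helper cells were sorted, with 3 libraries per sort and treatment, 18 in all. All groups carried the tumour and received anti-PD-1, so the comparison is of D18 added to PD-1 blockade, and anti-PD-1 alone is called below the treatment without D18. Mice were pooled before they were divided into groups, and no source used here states that each replicate was a different animal. The p-values therefore measure the spread between these libraries, which may be technical, and limma draws a gene's spread in part from other genes.

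Granzymes are serine proteases stored in secretory granules, and perforin forms the pores through which they enter a target cell. Serglycin, the product of Srgn, is the proteoglycan core that packs them, while Nkg7 and cathepsin W (Ctsw) are proteins of cytotoxic lymphocytes, the first of them in the granule membrane. Interferon gamma (Ifng) and tumour necrosis factor (Tnf) act on receptors of neighbouring cells, and Fas ligand (Fasl) triggers death through its receptor Fas. In tumours these genes mark effector CD8+ T cells and natural killer (NK) cells, whereas Srgn and Tnf are also transcribed in myeloid cells.

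Stretches directly upstream of 4 of these genes are shown because the granzyme, perforin and Nkg7 transcripts are those on which the results turn, and because their values with D18 lay in different directions. The sequences are from RefSeq on GRCm38.p6, 5′ to 3′ along the gene's strand, and they end before the first annotated exon base. Capitals mark TGTGGT, the core of the Runx motif, or its reverse complement ACCACA.
Gzma, chr13:113100982-113101121, minus strand: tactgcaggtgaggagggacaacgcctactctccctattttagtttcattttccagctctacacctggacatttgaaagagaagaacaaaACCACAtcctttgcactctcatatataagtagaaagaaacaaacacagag
Gzmb, chr14:56262335-56262474, minus strand: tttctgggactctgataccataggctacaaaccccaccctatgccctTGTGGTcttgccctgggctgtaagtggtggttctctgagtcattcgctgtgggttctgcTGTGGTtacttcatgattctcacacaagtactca
Prf1, chr10:61297696-61297832, plus strand: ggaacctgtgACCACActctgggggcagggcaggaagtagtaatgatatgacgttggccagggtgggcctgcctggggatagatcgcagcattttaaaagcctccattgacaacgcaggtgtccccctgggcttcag
Nkg7, chr7:43436998-43437072, plus strand: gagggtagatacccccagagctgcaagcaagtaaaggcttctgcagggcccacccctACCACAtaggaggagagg
In 300-base windows from 250 bases before to 50 after the start site, this core was found on either strand for 5 of the 9 genes with an entry (Gzma, Gzmb, Nkg7, Prf1 and Srgn), and in 16.8% of all 32851 windows. Gzma holds it at -50 from the RefSeq start site and Gzmb at -93 and -34. The T-box letters GTGTGA were found for Gzmb, Gzmk and Nkg7 (14.5% of all windows), and the AP-1 letters TGANTCA for Gzmb alone (7.81%). The cyclic AMP response element TGACGTCA was found for 0 of the 9 (1.79% of all windows). Some of these motifs share short runs of letters, and a match describes the sequence and not a bound site.

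The libraries were shallow, with 11170 to 266392 reads assigned to genes, and a count of 0 allows up to 3 reads, or 11.3 to 269 CPM, the share of a library's assigned reads on the usual counts-per-1000000 scale. Such limits cover counting error only, since reads without molecular identifiers are not independent molecules. Several libraries went against their labels, and results that rest on them are given with and without them. T cell content was read from the CD3 genes (Cd3d, Cd3e, Cd3g and Cd247), which took 2851 to 3746 CPM in the CD8+ libraries numbered 1 and 2 and 829 to 1701 CPM in the libraries numbered 3 of all 3 sorts, dendritic cells included. They took 0 to 179 CPM in the dendritic cell libraries numbered 1 and 2, and 0 to 55.4 CPM in CD4+ anti-PD-1 replicates 1 and 2 against 1380 to 1681 CPM with D18. Macrophage markers took 17392 to 34189 CPM in the libraries numbered 3. In the CD8+ sort they took 21280 to 34189 CPM without D18 and 1326 to 22079 CPM with it. Anti-PD-1 replicates 1 and 2 of each sort held no read of the mitochondrial genes mt-Atp6, mt-Co2 and mt-Co3, which were read in every other library, so these libraries are treated as a batch although no label names one. NK cells could also carry these genes. Their markers Ncr1 and Klra8 had 0 reads in all 18 libraries, Klrb1c had at most 2 and Xcl1 at most 1, while Klrd1 and Klrk1, which activated T cells also express, had up to 206 and 129. Klre1, of the same list, had 6, 29 and 6 reads without D18 and 6, 31 and 3 with it in the CD8+ sort, and 15 in CD4+ D18 replicate 1. Eomes, also on the list, had 0, 1 and 0 against 6, 19 and 1 in the CD8+ sort. The summed NK list took 369 to 1286 CPM without D18 and 487 to 1449 CPM with it in the CD8+ sort, 34.7 to 244 and 32.1 to 656 CPM in the CD4+ sort, and 151 to 409 and 0 to 591 CPM in the dendritic cell sort. The part of NK cells in the results below was not tested.

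Gzma (chr13:113093825-113100981 in mm10, minus strand) was read in the CD8+ T cell sort with D18 and had no read there without it. Its tryptase product cleaves after basic residues. Without D18 it had 0, 0 and 0 reads in replicates 1, 2 and 3, and the D18 libraries held 17, 350 and 28, that is 305, 1314 and 359 CPM. All 3 D18 libraries held reads and no anti-PD-1 library did, including anti-PD-1 replicate 3, which shares a batch with the D18 libraries. Pooled over the sort, 395 reads of 400208 against a floor of 3 reads in 411387 made the D18 level at least 135-fold higher in CPM. This bound rests on the deepest libraries, and it was 46.1-fold without D18 replicate 2 and 72.9-fold without anti-PD-1 replicate 2. Among the 1569 genes tested in this sort, Gzma was the 1 with 0 reads in every anti-PD-1 library and reads in every D18 library (0.0637%), and 1 gene had the opposite pattern (0.0637%). A gene at 0 with 1 treatment reaches the filter's mean of 10 normalised reads through the other alone, so the filter shapes both counts. Genes with such a pattern at fewer reads fell below it, among them Irf4 (0, 0 and 0 against 3, 10 and 6). Over all 18 libraries, 6305 genes had 0 reads in the 9 anti-PD-1 libraries and at least 1 with D18. Gzma had the most reads of them, 477, followed by the immunoglobulin gene Igkv12-44 with 67 and the B cell receptor gene Cd79a with 62. In the other direction there were 2090 genes, and the one with the most reads was the T cell receptor segment Trbv17, with 137 reads in anti-PD-1 libraries and 0 with D18. The limma log2 change of Gzma, held down by the pseudocount, was 5.85 ± 1.04 (SE, n = 3 per group, unadjusted p = 3.7e-04, Benjamini-Hochberg adjusted p = 0.534). With the replicate number as a block, Gzma rose with an adjusted p of 0.0141 by limma, against 20 of 1569 genes called in that fit (1.27%, and 0.574% called higher). Without the pair numbered 3 the blocked adjusted p by limma was 0.182. Without the pair numbered 1 it was 1.36e-04 (0.956% of genes called) and without the pair numbered 2 it was 0.00850 (1.78% called). Blocked fits without a pair hold few libraries, so their p-values, here and below, rest largely on spread borrowed from other genes. On the deposited log2 values the change was 3.88 (limma adjusted p = 0.0499), and without a filter on low genes the limma adjusted p was 8.46e-12, with 0.152% of 14497 genes called. The SE was 0.72 without the filter at the same change of 5.85, since limma then borrowed spread from a wider set of genes. The estimate itself follows from the zeros and the pseudocount, and was 9.14 at a pseudocount of 0.1 and 2.76 at one of 10. The within-batch value is also 5.85 by construction, since its control library is at 0 like the others, with an SE of 1.61 (limma adjusted p = 0.871).

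**Figure D1:**
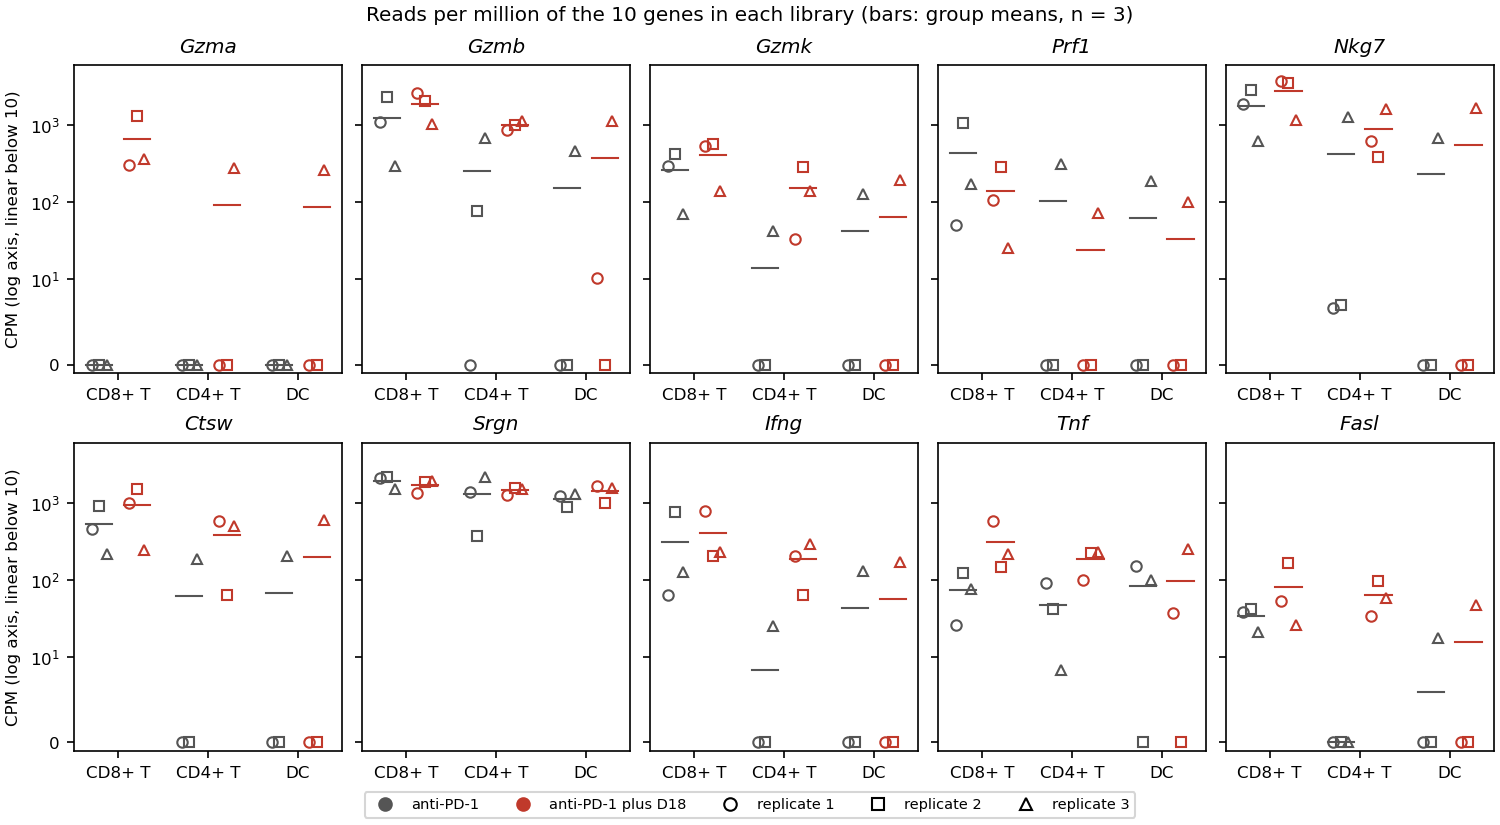
CPM (log axis, linear below 10) of each of the 10 genes in each library, by sort and treatment; symbols give the replicate number and short bars the group means of 3 libraries. Gzma lies at 0 in all anti-PD-1 libraries and between 305 and 1314 CPM in the 3 CD8+ D18 libraries. Srgn was read in every library, from 367 CPM in the CD4+ sort to 2166 CPM in the CD8+ sort.

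The other granzymes were present with both treatments. Gzmb (chr14:56258838-56262260), whose product cleaves after aspartate and activates caspases, had 85, 444 and 42 reads without D18 and 145, 552 and 80 with it. That is 1087, 2340 and 293 CPM against 2597, 2072 and 1026 CPM, so the groups overlapped and the library numbered 3 was the lowest in each. Its log2 change was 0.86 ± 0.66 (limma adjusted p = 0.715), or 2.21 ± 0.74 within the batch (adjusted p = 0.871). With the replicate block the limma adjusted p was 0.267. It was 0.494, 0.0208 and 0.743 without the pair numbered 1, 2 and 3, so a single one of these fits passed, with a change of 1.47. Gzmk (chr13:113171608-113225908), a trypsin-like granzyme of memory-type T cells, had 23, 80 and 10 reads against 30, 151 and 11. These values overlapped too, and the log2 change was 0.64 ± 0.65. The endothelial gene Esm1 lies within the span of Gzmk on the opposite strand. It was assigned 40 reads, all in D18 libraries and 33 of them in the CD8+ sort. Whether exons of both genes overlap was not examined, and reads of shared bases cannot be assigned in libraries that keep no strand.

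The make-up of the granzyme reads differed between the treatments. Of the reads of Gzma, Gzmb and Gzmk together, Gzma took 8.85% (95% exact binomial interval 5.24 to 13.8%), 33.2% (30.4 to 36.2%) and 23.5% (16.2 to 32.2%) in the 3 CD8+ D18 libraries. In the anti-PD-1 libraries it took 0 of 108, 0 of 524 and 0 of 52 reads, which allow shares of up to 2.78%, 0.573% and 5.77%. The smallest D18 share lay above each of these limits, but its interval starts at 5.24%, below the limit of 5.77% in anti-PD-1 replicate 3. Gzmb took 78.7%, 84.7% and 80.8% without D18 and 75.5%, 52.4% and 67.2% with it, without overlap. A share taken by Gzma lowers the other shares. With Gzma left out, 85, 444 and 42 Gzmb reads stood beside 23, 80 and 10 of Gzmk without D18. With D18, 145, 552 and 80 stood beside 30, 151 and 11, and the Gzmb proportions of the treatments then overlapped. Of the remaining granzymes, Gzmc had 3, 18 and 5 reads without D18 and 1, 0 and 2 with it, and Gzmf had 0, 23 and 4 against 3, 0 and 0. Both were too low to test, as was Gzmm with at most 10 reads, and their values overlap or rest on few reads.

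**Figure D2:**
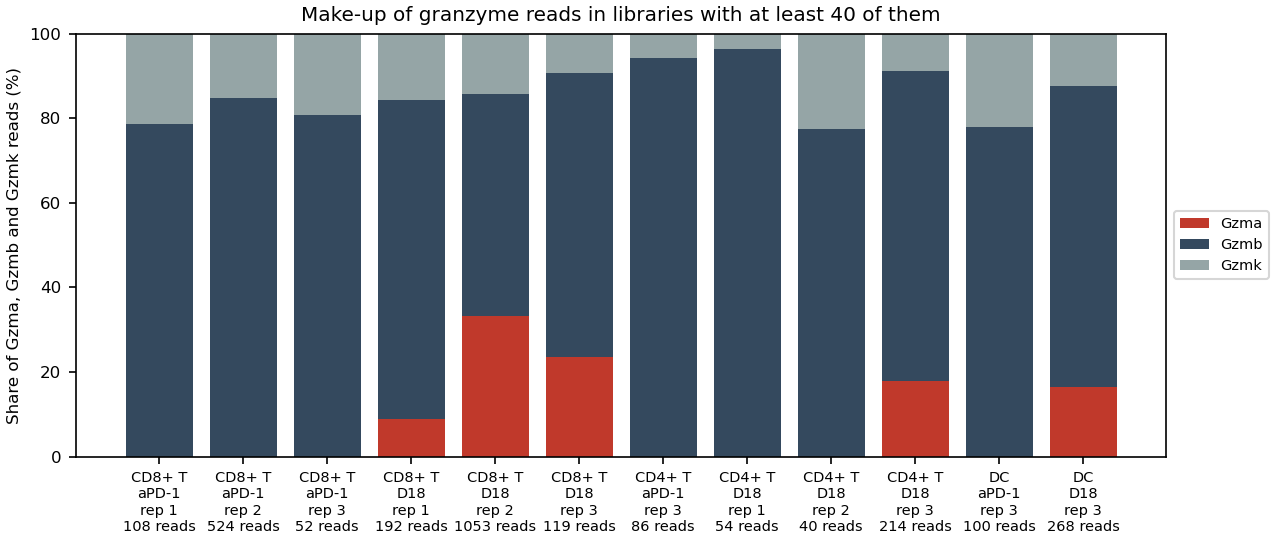
Share (%) of Gzma, Gzmb and Gzmk in their summed reads, for each library with at least 40 such reads; the number of reads stands under each bar. Gzma is absent from every anti-PD-1 bar and takes 8.85% to 33.2% in the CD8+ D18 libraries, 17.8% in CD4+ D18 replicate 3 and 16.4% in dendritic cell D18 replicate 3, while the bars of CD4+ D18 replicates 1 and 2 (54 and 40 reads) hold none.

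Prf1 (chr10:61297833-61304680), the pore-forming gene, was lower on average with D18 but did not pass. It had 4, 204 and 25 reads without D18 and 6, 76 and 2 with it, or 51.1, 1075 and 174 CPM against 107, 285 and 25.6 CPM. The highest value was that of anti-PD-1 replicate 2 and the lowest that of D18 replicate 3, and the groups overlapped because anti-PD-1 replicate 1 was also low. Its log2 change was −1.22 ± 1.08 (limma adjusted p = 0.726). Without anti-PD-1 replicate 2 it was −0.16, without anti-PD-1 replicate 1 −2.24, and by limma-voom −0.15. With the replicate block the limma adjusted p was 0.359. It was 0.00487, 0.662 and 0.805 without the pair numbered 1, 2 and 3, so a single one of these fits passed, with a change of −2.30.

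The granule genes Nkg7 and Ctsw were abundant with both treatments. Nkg7 (chr7:43437073-43438249) had 146, 546 and 89 reads without D18 and 209, 927 and 91 with it, or 1867, 2878 and 620 CPM against 3744, 3480 and 1167 CPM. Each D18 library was above the anti-PD-1 library of its number, but the groups overlapped, and the log2 change was 0.63 ± 0.59 (limma adjusted p = 0.735). Ctsw (chr19:5465043-5468507) had 36, 175 and 31 reads against 56, 408 and 19, with a change of 0.57 ± 0.67. Its span overlaps that of Fibp, a broadly expressed gene on the opposite strand that was assigned 86 reads over all libraries. Reads of bases that both genes share cannot be assigned in libraries that keep no strand. Srgn (chr10:62493833-62527451) had 164, 411 and 218 reads without D18 and 76, 493 and 149 with it. Its levels, 1520 to 2166 CPM against 1361 to 1910 CPM, overlapped and its change was −0.27 ± 0.41.

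Of the secreted and surface effectors, Tnf (chr17:35199381-35202007) had 2, 23 and 11 reads without D18 and 32, 39 and 17 with it, or 25.6, 121 and 76.7 CPM against 573, 146 and 218 CPM. The lowest D18 value lay above the highest anti-PD-1 value by 1 narrow step (121 against 146 CPM), and D18 replicate 1 held the highest level. The log2 change of 1.82 ± 0.69 did not pass (limma unadjusted p = 0.0274, adjusted p = 0.564), nor did it with the block (adjusted p = 0.238). Ifng (chr10:118441046-118445892) had 5, 143 and 18 reads against 44, 54 and 18. Its anti-PD-1 libraries held both the lowest and nearly the highest level (63.9, 754 and 125 CPM against 788, 203 and 231 CPM). The change was 0.72 ± 0.90 (limma adjusted p = 0.800), and without anti-PD-1 replicate 1 it was −0.05. Fasl (chr1:161780689-161788495) had 3, 8 and 3 reads against 3, 44 and 2, below the filter, and its D18 level rests on replicate 2.

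In the CD8+ sort as a whole, 9 of the 10 genes could be tested, of which 7 had a positive log2 change and 2 a negative one. Their median was 0.64 (also with Gzma set at its lower bound), beside −0.03 over all 1569 genes, 48.3% of which were positive. Without anti-PD-1 replicate 3 the members' median was 0.18, without anti-PD-1 replicate 2 it was 1.08, without D18 replicate 1 it was 0.36 and without D18 replicate 3 it was 1.10. By limma 0 of the 9 passed, as did 0 of 1569 genes (0.0%), and 2 of the 9, Gzma and Tnf, had an unadjusted p under 0.05 beside 8.29% of all genes. The same 2 were the members whose groups did not overlap, both higher with D18, beside 6.88% of all genes higher and 7.65% lower without overlap. Both reached the filter's mean of 10 normalised reads through the D18 libraries (0 and 8.68 on average without D18, 66.2 and 33.9 with it), so their place in this count was favoured by the filter. Macrophage reads differed between the treatments beside these changes, as given above, and their part in them was not tested. Fewer cells of a type and less RNA per cell cannot be told apart in such bulk samples. In the plot of the estimates, within-batch values rest on a single control library, anti-PD-1 replicate 3, in which the CD3 genes took 829 CPM.

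**Figure D3:**
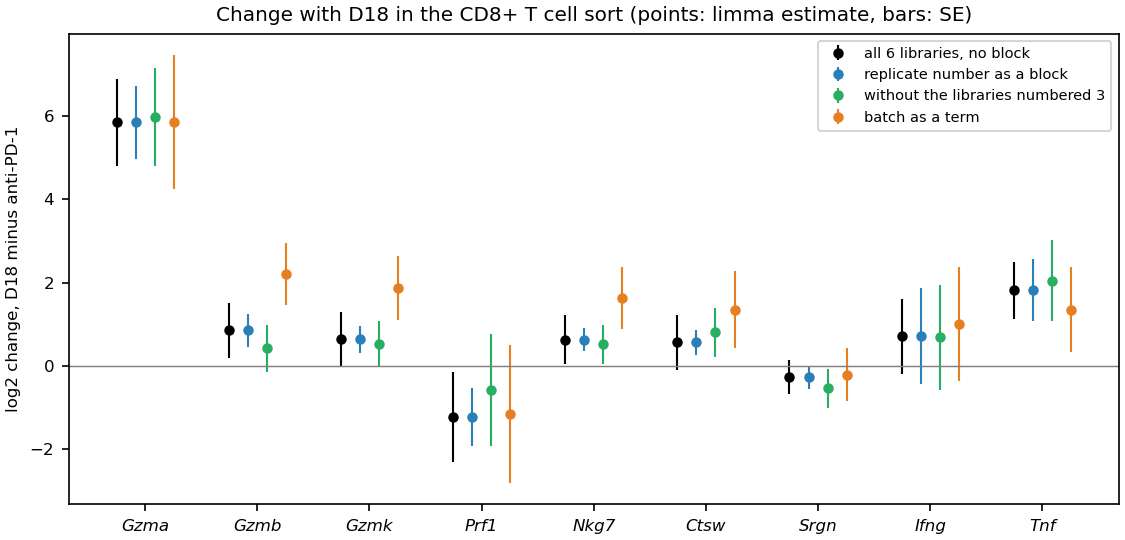
log2 change (D18 minus anti-PD-1) in the CD8+ T cell sort by 4 limma fits, with bars of 1 SE, for the 9 genes tested. Gzma, whose estimate is set by its zeros and the pseudocount of 1 used in these fits, lies between 5.85 and 5.98, Tnf between 1.35 and 2.05, and Gzmb between 0.43 and 2.21.

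Because T cell content differed between libraries, each gene was also set against the reads of the CD3 genes in the same library. In the CD8+ sort Gzma had 0 reads per CD3 read without D18 and 0.0960, 0.351 and 0.329 with it. The zeros allow up to 0.0135, 0.00510 and 0.0252, all below the lowest D18 ratio, and pooled over the sort the ratio was at least 97.2-fold higher, or 53.2-fold without D18 replicate 2 and 35.7-fold without anti-PD-1 replicate 2. Nkg7 had 0.655, 0.929 and 0.748 reads per CD3 read without D18 and 1.18, 0.929 and 1.07 with it. The groups touched at 0.929 in the replicates numbered 2, and the means were 0.777 ± 0.139 and 1.06 ± 0.126 (SD, n = 3 each, exact permutation p = 0.10, 2-sided). For Gzmb the ratios were 0.381, 0.755 and 0.353 against 0.819, 0.553 and 0.941, which overlap. Prf1 averaged 0.192 ± 0.165 without D18 and 0.0445 ± 0.0279 with it (SD, n = 3 each), and these overlapped through anti-PD-1 replicate 1, at 0.0179. The smallest p that 3 against 3 libraries can reach is 0.10, and the exact permutation p adjusted over the 10 genes was 0.50 at the least. Ratios did not overlap for 2 of the 10 genes, Gzma and, by a margin below the third decimal, Nkg7. Among the 1569 tested genes 1.98% were higher and 4.91% lower with D18 without overlap.

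The 6 libraries numbered 3 gave a further view, since they held CD3 reads whatever the sort and all come from 1 batch. Over the 3 sorts Gzma had 0 reads beside 474 CD3 reads without D18, and 110 reads beside 560 CD3 reads with it. The D18 ratio was at least 31.0-fold higher (17.8-fold without the CD4+ anti-PD-1 library), and the 3 D18 libraries ranged from 0.155 to 0.329. Prf1 lay on the other side, with 0.183 to 0.210 reads per CD3 read without D18 and 0.0235 to 0.0599 with it, without overlap. Gzmb (0.353 to 0.510 against 0.673 to 0.941), Nkg7 (0.743 to 0.771 against 1.00 to 1.18) and Tnf (0.00495 to 0.111 against 0.151 to 0.200) were higher with D18 without overlap. The lowest Tnf ratio rests on 1 read, in the CD4+ library. Tnf also had 14 and 9 reads in CD4+ and dendritic cell anti-PD-1 replicate 1, which held 0 CD3 reads, so its ratio need not be a T cell level. The ratios of Gzmk, Ctsw, Srgn, Ifng and Fasl overlapped. Over 1073 genes, 4.19% were higher and 18.7% lower with D18 in this ratio without overlap. These libraries resemble one another across sorts in their marker genes, so they are not independent views of 3 cell types, and no test was made.

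**Figure D4:**
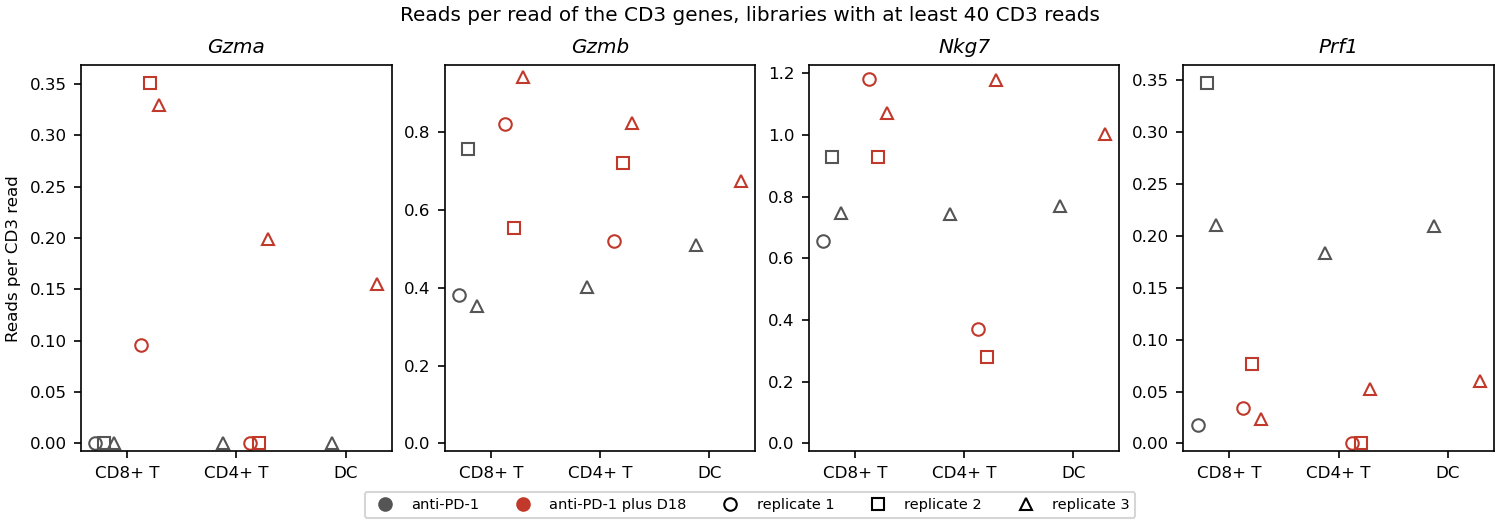
Reads of Gzma, Gzmb, Nkg7 and Prf1 per read of the CD3 genes, for each library with at least 40 CD3 reads; colours give the treatment and symbols the replicate number. Among the libraries numbered 3 (triangles), Gzma, Gzmb and Nkg7 lie higher with D18 in each sort and Prf1 lies lower, while CD4+ D18 replicates 1 and 2 hold Gzmb without Gzma or Prf1.

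In the CD4+ T cell sort the members other than Srgn and Tnf were read mainly in libraries that held CD3 reads. Gzmb had 0, 11 and 81 reads without D18 and 52, 31 and 157 with it, or 0, 76.2 and 682 CPM against 874, 995 and 1144 CPM. Every D18 library lay above every anti-PD-1 library. Nkg7 had 1, 1 and 150 reads against 37, 12 and 225, and Ctsw 0, 0 and 22 against 35, 2 and 69. Anti-PD-1 replicates 1 and 2, which held 0 and 8 CD3 reads, were the low libraries for Gzmb, Nkg7 and Ctsw. Anti-PD-1 replicate 3 reached the D18 range for Nkg7 and Ctsw. Tnf ran otherwise, with 14, 6 and 1 reads without D18 and 6, 7 and 32 with it. Srgn had 212, 53 and 254 reads against 76, 49 and 205. Of the 4 members tested, 0 passed, as did 0 of 966 genes (0.0%), with log2 changes of 3.03 ± 1.26 for Gzmb, 2.94 ± 1.48 for Nkg7, 3.11 ± 1.57 for Ctsw and −0.12 ± 0.52 for Srgn, the last of which turned to 0.02 under quantile normalisation (limma, smallest adjusted p = 0.453). Of the 4 changes 3 were positive with a median of 2.99, beside 51.6% and 0.03 over all genes. Ctsw averaged 4.76 normalised reads without D18 and 31.0 with it, so it reached the filter's mean of 10 through the D18 libraries. The filter thus favoured a positive change for Ctsw. Gzmb had an unadjusted p of 0.0414 by limma beside 10.4% of all genes under 0.05, and was the 1 of the 4 whose groups did not overlap, beside 5.28% of all genes higher and 9.21% lower without overlap. Without anti-PD-1 replicates 1 and 2 the changes were 0.46 for Gzmb, −0.85 for Nkg7 and 0.48 for Ctsw, and the group difference and the CD3 content cannot be told apart. Without both libraries numbered 3, limma called 34 genes (3.52%) and 0 members, with Gzmb at 4.16 (adjusted p = 0.0734). Without anti-PD-1 replicate 3 alone, Nkg7 passed (adjusted p = 0.0202 by limma), as 1 of 19 genes called (1.97%).

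CD4+ D18 replicates 1 and 2 held no read of Cd8a or Cd8b1, 16 and 10 reads of Cd4 and 100 and 43 CD3 reads, so they carried the label's markers. They also held macrophage markers at 6604 and 25260 CPM, so they were not free of macrophage RNA. Cd4 reads alone do not mark T cells here, since CD4+ anti-PD-1 replicate 1 had 7 beside 0 CD3 reads. In D18 replicates 1 and 2 Gzmb reached 874 and 995 CPM, near the 1026 to 2597 CPM of the CD8+ D18 libraries. Gzma and Prf1 had 0 reads in both, which allows up to 50.4 and 96.3 CPM. Their 2 and 9 reads of Gzmk, 37 and 12 of Nkg7, 35 and 2 of Ctsw, 12 and 2 of Ifng, 6 and 7 of Tnf and 2 and 3 of Fasl were fewer. CD4+ D18 replicate 3, with 83 reads of Cd8a and 2 of Cd4, held the 38 Gzma reads and the 10 Prf1 reads of its group. Srgn was present in all 6 libraries at 367 to 2139 CPM.

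The dendritic cell sort held the members where it held CD3 reads. Gzma had 0 reads in 5 libraries and 44 in D18 replicate 3, and Nkg7 had 118 and 285 reads in the libraries numbered 3 of the 2 treatments and 0 in the other 4. Gzmb had 78 and 191 reads in the same pair of libraries and 2 reads elsewhere, in D18 replicate 1. Prf1 (32 and 17), Gzmk (22 and 33), Ctsw (35 and 101), Ifng (22 and 29) and Fasl (3 and 8) were likewise read in the libraries numbered 3 alone. Tnf also had reads outside them, 9 in anti-PD-1 replicate 1 and 7 in D18 replicate 1, and Srgn had 72, 199 and 224 reads against 318, 11 and 264. By limma 0 of 4 tested members and 0 of 886 genes (0.0%) passed, and 0 of the 4 had an unadjusted p under 0.05 beside 6.88% of all genes. The groups of all 4 overlapped, beside 4.18% of all genes higher and 19.9% lower without overlap. The changes were 0.78 ± 2.37 for Gzmb, 0.42 ± 2.57 for Nkg7, 0.50 ± 2.57 for Ctsw and −0.18 ± 0.77 for Srgn, so that the errors exceeded the changes. Of the 4 changes 3 were positive with a median of 0.46, beside 30.9% and −0.65 over all genes. Without D18 replicate 2, a library of 11170 reads, the median over all genes was 0.06 and that of the members 1.52. Ctsw averaged 5.52 normalised reads without D18 and 16.1 with it, so here too the filter's mean of 10 favoured a positive change for Ctsw. The signs depended on the scaling, with −1.14 for Gzmb, −1.41 for Nkg7 and −0.98 for Ctsw by limma-voom and 0.20 for Srgn under quantile normalisation. Without the libraries numbered 3, Nkg7 and Ctsw had no reads left in this sort.

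Between the sorts, the mean levels of the lytic granule genes and Ifng were highest in CD8+ T cells, but with all 18 libraries none of these differences passed. Of the 9 members tested between sorts, Gzma, Gzmk, Prf1 and Ifng had a mean of at least 10 normalised reads in the CD8+ sort alone. Tnf had such a mean in the CD8+ and CD4+ sorts but not in the dendritic cell sort. The filter thus favoured a positive difference for these genes, for Tnf against the dendritic cell sort, and the counts below are a description. Averaged over both treatments and all 18 libraries, the log2 difference of the CD8+ from the dendritic cell sort was 5.14 ± 1.31 for Nkg7, 4.55 ± 1.17 for Gzmb, 3.94 ± 1.07 for Ctsw, 3.26 ± 0.91 for Gzmk and 3.19 ± 0.92 for Ifng (limma, adjusted p = 0.118 each). Prf1 (2.50), Gzma (1.97) and Tnf (1.31) followed, and Srgn (0.15 ± 0.34) did not differ beyond its error. None of the 9 tested members and 0 of 1073 genes (0.0%) passed by limma, while 6 of the 9 had an unadjusted p under 0.05 beside 20.2% of all genes. Without the libraries numbered 3, 125 genes passed (11.6%, and 6.43% as higher in CD8+), among them 7 of the 9 members, all but Srgn and Tnf. Nkg7 then differed by 7.80 (limma adjusted p = 7.11e-06) and Gzmb by 6.93 (adjusted p = 2.10e-04). The CD8+ libraries numbered 1 and 2 held 1828 reads of Nkg7 and 1226 of Gzmb, and the dendritic cell libraries of those numbers 0 and 2. Srgn had 1361 to 2166 CPM in the former and 895 to 1668 CPM in the latter.

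Against the CD4+ sort the differences ran from 0.19 for Srgn and 0.30 for Tnf to 2.82 ± 1.31 for Nkg7, and 0 passed by limma, with an adjusted p of 0.944 at the least. At an unadjusted p under 0.05 there were 5 of the 9, beside 5.03% of all genes. Without the libraries numbered 3, 24 genes passed (2.24%, and 1.58% as higher in CD8+), and 5 of them were members, Ctsw, Gzma, Gzmk, Nkg7 and Prf1. Gzmb (3.02, limma adjusted p = 0.105) and Ifng (2.89, adjusted p = 0.158) were not among them. The CD4+ libraries in that fit included anti-PD-1 replicates 1 and 2, with 0 and 8 CD3 reads. The sort difference and the CD3 content cannot be told apart there. Over all alternatives the Nkg7 difference ran from 0.93 to 4.56. Whether the change with D18 differed between sorts was tested as an interaction, which called 0 of 1073 genes and 0 members for either pair of sorts by limma (unadjusted p under 0.05 for 1.12% and 1.21% of genes, and 0 members). The change of Gzma was larger in the CD8+ sort by 3.88 ± 2.02 than in the CD4+ sort and by 3.93 ± 2.02 than in the dendritic cell sort (adjusted p = 0.996 and 0.984).

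**Figure D5:**
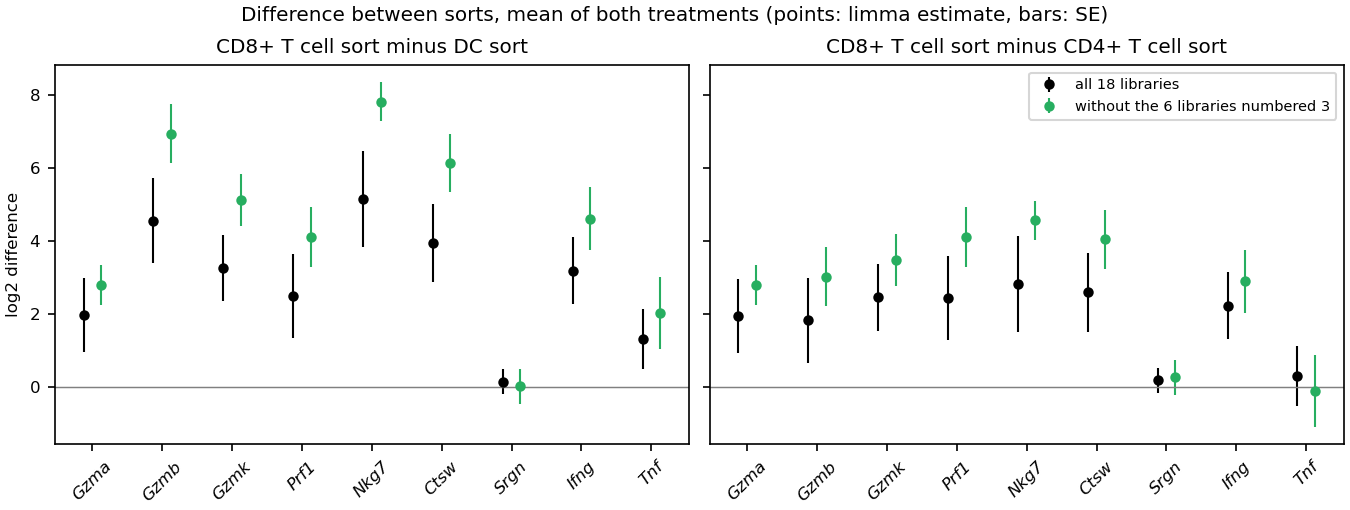
log2 difference of the CD8+ T cell sort from the dendritic cell sort (left) and the CD4+ T cell sort (right), averaged over treatments, from limma with bars of 1 SE. With all 18 libraries (black) Nkg7 differs by 5.14 and 2.82, without the 6 libraries numbered 3 (green) by 7.80 and 4.56, and Srgn stays near 0 in both panels. The green values at right include CD4+ anti-PD-1 replicates 1 and 2, which held 0 and 8 CD3 reads.

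Per kilobase of exon, Nkg7 was the most abundant of the 10 transcripts in the CD8+ sort with either treatment. With anti-PD-1 its level was 1957 ± 1237 CPM per kilobase (SD, n = 3), followed by Srgn at 878 ± 162, Gzmb at 864 ± 719, Ctsw at 282, Ifng at 243, Gzmk at 188, Prf1 at 168, Tnf at 45.5 and Fasl at 17.5. Each overlapped its neighbour in this order, and Gzma, at 0, stood below the range of Fasl. With D18 the order was Nkg7 (3060 ± 1551), Gzmb (1322 ± 557), Srgn (778 ± 137), Gzma (655 ± 564), Ctsw (491), Ifng (314), Gzmk (299), Tnf (191), Prf1 (54.0) and Fasl (42.1), and again each overlapped the next. Gzma thus stood in rank 4 with D18 and in rank 10 without it, while Prf1 stood in rank 9 and rank 7.

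Genes around the same machinery were followed in 5 lists, and 0 of their members passed by limma in the CD8+ sort. Of 16 other granule proteins 6 were tested, and 0 of the 6 were higher with D18 (median −0.94 beside −0.03 over all genes). They were the lysosomal membrane genes Lamp1 (−1.56 ± 0.87) and Lamp2 (−1.16 ± 1.39), Ctsc, the protease that activates granzymes (−1.23 ± 0.97), the granzyme B inhibitor gene Serpinb9 (−0.72 ± 0.45), M6pr (−0.34) and Calr (−0.04). Lamp1, Lamp2 and Ctsc are also abundant in macrophages, whose markers took the CPM given above, and the part of those cells in these values was not tested. Of 10 exocytosis genes 3 were tested, the motor gene Kif5b (0.73), Vamp8 (0.01) and Stxbp2 (−0.21). Among 15 other cytokines and death ligands, 3 of 4 tested were higher, the chemokine genes Ccl4 (1.06 ± 1.06) and Ccl5 (0.87 ± 0.78) and the lymphotoxin gene Ltb (0.33), and Ccl3 was lower (−0.65 ± 1.33).

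On the receiving side, 3 of 6 receptor genes were tested, Cd44 (0.42), Ifngr1 (−0.02) and the TNF receptor gene Tnfrsf1b (−1.08 ± 0.64). Of the transcriptional regulators tested, 5 of 7 were higher. The 2 lower ones were Tox, a regulator of T cell exhaustion (−2.19 ± 1.61), and the AP-1 subunit gene Fos (−0.81 ± 0.58), and Id2 was among the higher ones (0.69 ± 0.47). Runx3, whose product binds the motif shown above, had 11, 27 and 5 reads without D18 and 11, 20 and 9 with it (0.30 ± 0.61). Eomes and Irf4, named after their values were seen, were too low to test. Eomes, a T-box factor of cytotoxic cells, had 0, 1 and 0 reads against 6, 19 and 1, and Irf4, a factor of T cell activation, had 0, 0 and 0 against 3, 10 and 6.

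Likeness of pattern was read over the 18 libraries as Pearson's r of log2 normalised reads against 1072 other genes, as a description, since the libraries fall into those with and those without T cell reads. The genes most like Nkg7 were Cd3e (0.98), Cd3d (0.98) and Trbc2 (0.98), and those most like Gzmb were Cd3g, Cd3e and Trac (0.97 each). Prf1 was most like the CD8 co-receptor gene Cd8a (0.88), the inhibitory receptor gene Lag3 (0.87) and Cd8b1 (0.85). Ifng was most like Ctsw (0.93), Trbc2 (0.93) and the chemokine receptor gene Cxcr6 (0.92). For Gzma the highest values were lower, 0.76 for the integrin-linking gene Tln1, 0.64 for AW112010 and 0.63 for Pabpc1. Among the members themselves, Nkg7 and Ctsw had an r of 0.97, Nkg7 and Gzmb 0.95, Gzma and Gzmb 0.50, and Srgn and Nkg7 0.06.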

How the data were processed

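From 3 sorts of tumour immune cells, 3 libraries per treatment were made by Smart-Seq2, a method without strand information or molecular identifiers, and the labels gave each library's sort, treatment and replicate number. Alignment to mm10 used STAR 2.4.0 and counting per gene HTSeq 0.6.1, and DESeq2 normalised the counts (version not given in the sources used here), per the submitters' processing notes. The deposited tables, 1 per sort, hold log2 values that the authors made by a variance-stabilising transform, and their headers write D018 where the labels write D18. The transform was undone, which gave whole reads for 100% of values within a tolerance of 0.001, and symbols were found for 46488 of 46983 identifiers (98.9%).

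Tests used limma 3.58.1 (R 4.3.3) on log2(normalised reads + 1), that is, of recovered reads over a library's size factor, so that a fold change understates the change of low genes. Genes with a mean of at least 10 normalised reads were tested within a sort, or over all 18 libraries in the comparisons between sorts, without a block, and Benjamini-Hochberg adjusted p-values over all tested genes were held against 0.05. The count test planned was not used, because the deposited unit is log2. CPM were taken over recovered reads. Exact tests used scipy 1.17.1, tables pandas 2.3.3 with numpy 2.4.6, and plots matplotlib 3.10.9, all in Python 3.11.15. The fits were tried on simulated counts without a batch or differences in T cell content between libraries of a group, so that trial does not cover the spread seen here.

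The 10 genes and the pathway lists were chosen with earlier results of these data known. Named are all 10, up to 4 tested genes per pathway list with the largest absolute change in CD8+ T cells, and the 3 genes with the highest Pearson's r to Gzma, Gzmb, Prf1, Nkg7 and Ifng. A gene that this rule names is not reported here. Pathway genes named beyond these were chosen after their values were seen. The batch was read from mitochondrial genes, also after the values were seen. Libraries of the same number were taken as paired in the CD8+ sort, where their deviations from group means correlated at 0.36, 0.51 and 0.56 and each was most like its own number. They were not so taken in the CD4+ (−0.14, 0.15 and −0.20) and dendritic cell sorts (0.03, −0.09 and 0.14). Blocked fits in those sorts are given as alternatives only. No source used here states a pairing, so the one in the CD8+ sort rests on these same data. The libraries numbered 3 also resemble one another in marker genes, and what a shared number stands for was not tested.

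Alternatives were pseudocounts of 0.1 and 10, no filter, a mean of at least 100, quantile normalisation, limma-voom, the deposited log2 values, scaling to nuclear reads between sorts, the replicate block, a batch term, omission of the libraries numbered 3 and of each library in turn. Added after seeing the data were the block without each pair and omission of CD4+ anti-PD-1 replicates 1 and 2.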

Additional observations from a re-analysis of the deposited data

How the results depend on the processing

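Of 791 alternative values of single members, 723 kept their direction and their side of the threshold, 36 newly passed and 32 changed sign. In the CD8+ sort the count of genes called, 0, became 22 without a filter and 1 on the deposited log2 values, and with members counted alone 1 under each of these settings (Gzma). The replicate block, which pairs libraries by number, gave 20 genes and 1 member (Gzma), and without the pair numbered 1, 2 or 3 it gave 15, 28 and 1 genes and 2, 2 and 0 members. Leaving out 1 library at a time gave 0 to 2 genes, and the change of Ifng ran from −0.050 to 1.64 (−0.63 with the block and without the pair numbered 1). In the CD4+ sort, 29 genes and 1 member (Gzmb) passed without a filter, 34 genes without both libraries numbered 3, and 123 genes and 2 members (Gzmb and Nkg7) with the block and without the pair numbered 3, while the block over all 3 pairs called 0. Single omissions gave 0 to 19 genes and 0 to 1 members, with Nkg7 from 1.91 to 4.84 (−0.85 both with the batch term and without anti-PD-1 replicates 1 and 2). Srgn ran from −0.57 to 0.14 in them, and was 0.021 under quantile normalisation, 0.058 without the libraries numbered 3, and with the block 0.050 without pair 1 and 0.058 without pair 3. In the dendritic cell sort 1 gene passed under quantile normalisation, and with the block 103 passed without pair 2 and 2 without pair 3, with 0 members in each. There Gzmb was −1.14 by limma-voom and −2.72 with the batch term (−1.22 to 2.53 in single omissions), Nkg7 −1.41 and −3.46 (−1.94 to 2.37), Ctsw −0.98 and −2.26 (−1.38 to 1.87), and Srgn 0.20 under quantile normalisation and 0.71 with the block and without pair 2 (−0.54 to 0.30). Quantile normalisation moved the median change over all genes of that sort from −0.65 to −0.07, and limma-voom moved it to −0.18. Omission of D18 replicate 2 moved it to 0.06. Without the libraries numbered 3, Nkg7 and Ctsw gave no value there. The CD8+ sort against the CD4+ sort had 24 genes and 5 members called without the libraries numbered 3 and 0 to 4 genes in single omissions (4 without CD8+ D18 replicate 3). In that comparison Srgn was −0.030 without CD4+ anti-PD-1 replicates 1 and 2 (0.01 to 0.30 in single omissions), and Tnf was −0.11 without the libraries numbered 3 (−0.15 to 0.57). Against the dendritic cell sort, 2 genes passed at a pseudocount of 10, 125 genes and 7 members without the libraries numbered 3, and 0 to 53 genes and 0 to 5 members in single omissions (53 without dendritic cell D18 replicate 3). Scaling to nuclear reads moved the median difference between the D18 changes of these sorts from 0.29 to 0.44. Members without overlap per CD3 read numbered 2 of 10 (6.88% of all tested genes), and 2 to 5 in single omissions (9.62% to 25.6% of all tested genes). By limma-voom 0 genes passed in each sort, with 176, 99 and 128 at an unadjusted p under 0.05. The causes of these shifts were not tested. A count of 0 allows 11.3 to 269 CPM, which limits what can be said of Fasl, Gzmc and Gzmf, and a lone library in an omission is assumed to vary like the others.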
